A study of Mus musculus with 2 samples.

Results

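Red cells whose RNA was at least 90% haemoglobin message were described in blood of injured mice. A barcode, the tag that marks the RNA of a single droplet, was taken as such a cell when it had at least 100 detected genes and when Hba-a1, Hba-a2, Hbb-bs and Hbb-bt together made up at least 90% of its unique molecular identifiers (UMIs, counts of tagged RNA molecules). The rule found 266 of 1857 barcodes (14.3%): 145 of 1008 in replicate 1 (14.4%) and 121 of 849 in replicate 2 (14.3%). The exact binomial 95% intervals of these shares, 12.3 to 16.7% and 11.97 to 16.8%, overlap. The cells were chosen by their globin share and gene number, so these are a description, and the results below concern how the globin RNA was split among its genes and what the rest of the RNA was.

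The series holds 2 libraries in 1 group. Both came from wild type mice given burn/tenotomy, in which a skin burn is combined with cutting of a tendon. Whole blood was run through the iChip, a microfluidic sorter that enriches rare nucleated cells, and barcoded on the 10x Chromium platform, and the labels name the material as circulating mesenchymal progenitor cells together with blood cells. No blood of uninjured mice was used here, the age of the mice and the time after injury are not stated, and nothing says whether the libraries came from separate or pooled animals, so the spread between them may be technical.

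A young red cell that has lost its nucleus is called a reticulocyte. It can make no new nuclear RNA, keeps translating the globin messages it inherited, and clears its mitochondria and ribosomes by autophagy and by the ubiquitin system while its membrane skeleton is remodelled. Adult haemoglobin joins alpha chains, from Hba-a1 and Hba-a2, with beta chains, from Hbb-bs and Hbb-bt, around haem, whose synthesis in red cells begins with the enzyme encoded by Alas2.

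The following sequences are shown because they are those of the genes that supplied nearly all RNA counted in these cells, and because the gene copies within each globin pair are so alike that reads may not always tell them apart. Each run is the 120 bases before the RefSeq transcription start (build GRCm38.p6), read 5′ to 3′ on the gene's own strand, with the last base next to the start. The GENCODE M21 gene models of all 5 genes begin upstream of the RefSeq start, so the windows of Hba-a1 and Hbb-bs lie wholly within them, and those of Hbb-bt, Alas2 and Hba-a2 in part. Capitals mark exact matches, on either strand, to the TATA-box word TATAA, to the box read by NF-Y-type factors CCAAT, to the box read by Klf-type factors CACCC, and to the GATA-factor word AGATAA, whose first base may also be T and whose last base may also be G.
Hbb-bs, chr7:103827929-103828048, minus strand: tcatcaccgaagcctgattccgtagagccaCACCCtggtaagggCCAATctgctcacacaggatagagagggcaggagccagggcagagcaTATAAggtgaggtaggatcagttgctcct
Hbb-bt, chr7:103813924-103814043, minus strand: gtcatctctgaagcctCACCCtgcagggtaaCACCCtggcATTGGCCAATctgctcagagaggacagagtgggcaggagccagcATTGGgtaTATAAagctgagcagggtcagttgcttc
Hba-a1, chr11:32283552-32283671, plus strand: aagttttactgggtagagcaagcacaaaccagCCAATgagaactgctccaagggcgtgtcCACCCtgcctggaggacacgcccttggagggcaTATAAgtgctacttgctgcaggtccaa
Hba-a2, chr11:32296372-32296491, plus strand: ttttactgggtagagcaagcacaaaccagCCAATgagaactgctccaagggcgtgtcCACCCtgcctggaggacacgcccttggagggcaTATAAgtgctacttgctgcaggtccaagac
Alas2, chrX:150547297-150547416, plus strand: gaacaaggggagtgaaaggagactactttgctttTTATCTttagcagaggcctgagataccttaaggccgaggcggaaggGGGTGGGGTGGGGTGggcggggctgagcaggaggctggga
All 4 globin windows held the TATA-box word, the CCAAT box and the Klf-type box, and no GATA word. The Alas2 window held a GATA word and the Klf-type box, and neither of the others. Among 32851 RefSeq promoter windows of this length, the TATA-box word was in 11.8%, the CCAAT box in 21.3%, the Klf-type box in 31.7% and a GATA word in 12.8%. These are matches of letters only, and no binding was measured. The windows of Hba-a1 and Hba-a2 were the same over 117 aligned bases, offset by 3 bases, and those of Hbb-bs and Hbb-bt differed at 31 of 119.

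The coding sequences within each pair differed at 1 base, given in capitals with the bases around it (GENCODE M21, GRCm38). Positions count from 1 at the first base of the start codon.
Hba-a1, bases 361 to 401: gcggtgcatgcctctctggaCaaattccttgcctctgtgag
Hba-a2, bases 361 to 401: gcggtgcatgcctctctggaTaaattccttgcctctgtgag
Hbb-bs, bases 397 to 437: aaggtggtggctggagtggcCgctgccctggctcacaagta
Hbb-bt, bases 397 to 437: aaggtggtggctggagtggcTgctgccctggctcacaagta
The difference from Hba-a1 to Hba-a2 is C381T and that from Hbb-bs to Hbb-bt is C417T, each at base 3 of its codon. After the stop codon, the alpha copies were identical over the 74 bases that could be aligned, while the beta copies shared 92 of 124 (74.2%). Counts for Hba-a1 and Hba-a2 separately are therefore less certain than their sum. The beta copies are better separated by sequence near the end of the message.

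These cells carried deep counts from few genes. The median was 11028 UMIs per cell in replicate 1 (range 4909 to 24801) and 12142 in replicate 2 (4304 to 23320), from a median of only 145 and 151 detected genes. They gave 1662068 of the 3967318 UMIs of replicate 1 (41.9%) and 1485194 of the 3329292 of replicate 2 (44.6%). Outside the globins, a cell held a median of 724 and 732 UMIs, 117933 and 97184 in all. The libraries had 0 barcodes in common, and doublets were not called.

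The 90% limit fell within a continuous range. The globin share of the cells had a median of 92.9% in replicate 1 and 93.6% in replicate 2, and a maximum of 96.1% and 96.7%. The cells just inside the limit had 90.005% and 90.003% globin, and those just outside had 89.97% and 89.99%. Between 89 and 90% lay 19 and 17 barcodes, and between 90 and 91% lay 17 and 9. Another 69 barcodes (28 and 41) reached 90% globin with fewer than 100 genes and were not counted.

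**Figure D1:**
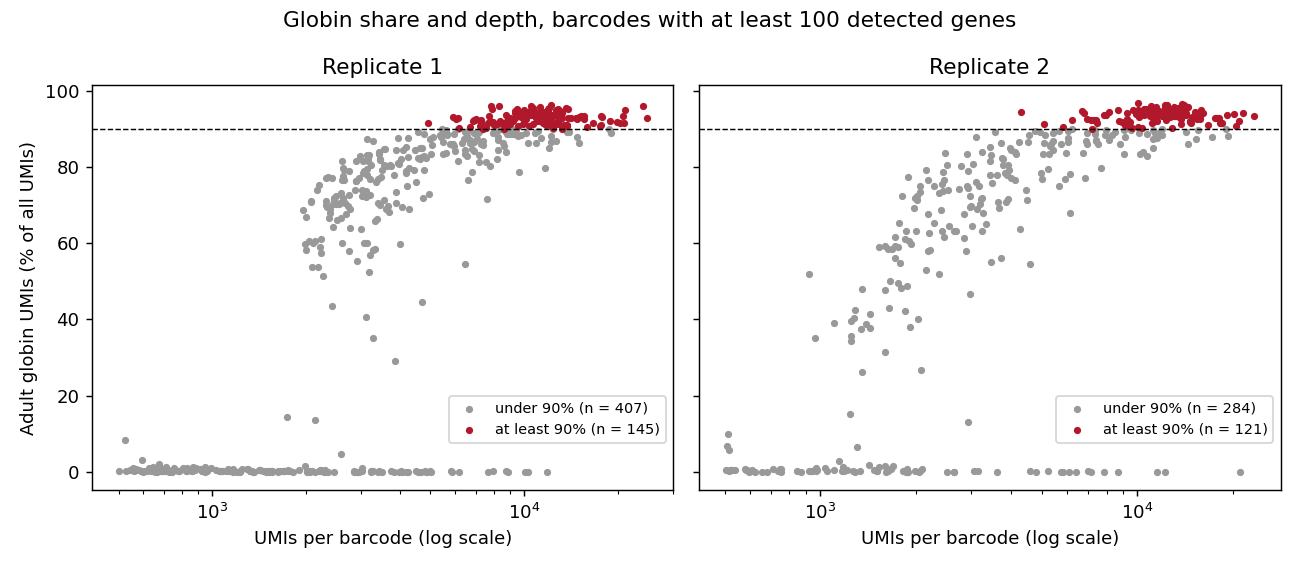
Share of UMIs from the 4 adult globin genes (y axis, %) against UMIs per barcode (x axis, log scale) for barcodes with at least 100 genes; each point is a barcode, red points are the 145 and 121 cells at or above the dashed 90% line. The red points join a continuous band of barcodes with lower globin share and fewer UMIs.

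As the closest comparison, barcodes with at least 100 genes and 40 to under 90% globin were used, 238 in replicate 1 and 186 in replicate 2. Their median depth was lower, 4050.5 and 3594.5 UMIs, but their non-globin depth was not, at 845.5 and 835.5 UMIs. As background for other cell types, barcodes with under 40% globin and at most 20% mitochondrial UMIs served, 88 and 42 in number.

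Beta globin UMIs slightly exceeded alpha globin UMIs in both libraries. Reads that fit both alpha copies may have been left uncounted, and the part of this in the difference was not tested. Hbb-bs was 41.2% of adult globin UMIs in replicate 1 and 39.5% in replicate 2, a mean of 40.4% ± 1.247 (SD, n = 2). Hba-a1 followed at 26.7% and 27.1%, Hba-a2 at 20.8% and 22.1%, and Hbb-bt at 11.3% in both. The order of the 4 genes was the same in both libraries, with gaps larger than the difference between them.

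Alpha globin, the sum of Hba-a1 and Hba-a2, was 47.5% of globin UMIs in replicate 1 and 49.2% in replicate 2 (48.3% ± 1.22, SD, n = 2). In barcodes with 40 to 90% globin it was 52.9% and 56.0% (54.5% ± 2.17), so the libraries of the 2 sets did not overlap. The cells also resembled each other more: single cells ran from 40.3 to 54.9% alpha in replicate 1 and from 43.5 to 58.8% in replicate 2. Barcodes with 40 to 90% globin ran from 32.2 to 95.5% and from 30.2 to 95.1%. The lower set has fewer globin UMIs per barcode (median 3200.5 and 2722.5, against 10259 and 11318), and the part of this depth in the wider range was not tested. It also spans a wider band of globin share by definition and holds more barcodes (238 and 186, against 145 and 121). The part of these in the wider range was not tested either.

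**Figure D2:**
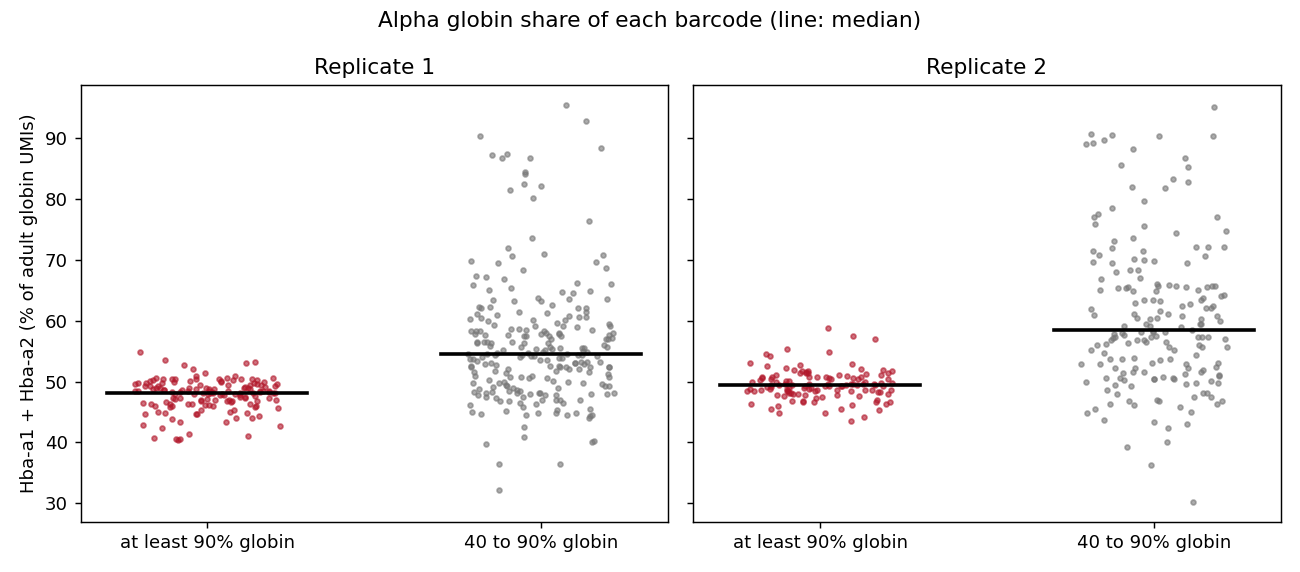
Alpha globin (Hba-a1 plus Hba-a2) as % of adult globin UMIs (y axis) in each barcode, by globin class and library; points are barcodes and black lines medians. Cells with at least 90% globin lie between 40.3 and 58.8%, while the other class reaches 95.5%.

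Within the beta pair, Hbb-bt supplied 21.5% and 22.3% of the UMIs (21.9% ± 0.57), against 21.2% and 21.3% in barcodes with 40 to 90% globin. In the barcodes with at least 90% globin but fewer than 100 genes it supplied 18.0% and 18.1%. The theta-like alpha genes Hbq1b and Hbq1a were present at low counts, 55 and 43 UMIs for Hbq1b and 39 and 29 for Hbq1a. Of embryonic globins, Hbb-y had 1 UMI in each library, and Hba-x, Hbb-bh1 and Hbb-bh2 had 0. A count of 0 allows up to 0.00254% of non-globin UMIs in replicate 1 and 0.00309% in replicate 2 (3 UMIs, counting error only).

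The rest of the RNA was concentrated in few genes. The 25 leading non-globin genes held 68.3% of non-globin UMIs in replicate 1 and 66.7% in replicate 2, and the leading 100 held 86.1% and 85.4%. From here on, levels are shares of non-globin UMIs unless stated otherwise. They are shares of tagged molecules and were not divided by gene length.

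Gm42418 led by a wide margin, with 35.3% in replicate 1 and 32.1% in replicate 2 (chr17:39846958-39848788, annotated as a lincRNA, and known to overlap ribosomal RNA sequence). It was lower than in barcodes with 40 to 90% globin, where it held 50.1% and 48.6%. AY036118, which lies within it on the other strand and cannot be told apart from it with certainty, had 2.45% and 2.36%. With Lars2 and Gm15564, these loci made 38.3% and 35.2%. Its UMIs count in the denominator of the globin share that chose the cells, and its lower share here is given as a description.

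Messages of the haem and iron pathways were prominent. Alas2 held 2.70% in replicate 1 (3184 UMIs) and 2.76% in replicate 2 (2682 UMIs), and every cell had at least 1 Alas2 UMI (100%). In barcodes with under 10% globin (85 and 29, a limit chosen after seeing the data), 2.35% and 6.90% had an Alas2 UMI at a median depth of 2005 and 2646 UMIs. The mitochondrial iron importer mitoferrin-1 (Slc25a37) had 0.572% and 0.590%, the last enzyme of haem synthesis, ferrochelatase (Fech), 0.490% and 0.451%, and Slc25a39, a mitochondrial glutathione carrier, 0.421% and 0.457%. Several steps between Alas2 and Fech had few UMIs: Urod had 21 and 12 UMIs, Cpox 5 and 3, and Uros 0. Thus 13 of 18 haem genes were detected, and Alas2 alone made 61.8% of the list.

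Iron storage was represented by both ferritin chains, the light chain Ftl1 at 1.66% and 1.63% and the heavy chain Fth1 at 0.928% and 0.829%. Iron-sulphur cluster genes followed, with Glrx5 at 0.235% and 0.292%, Isca1 at 0.212% and 0.311%, and Iscu at 0.158% and 0.156%. The transferrin receptor Tfrc, which brings iron into erythroid precursors, had 4 and 3 UMIs. The exporter Slc40a1, the iron sensors Aco1 and Ireb2, and Hmox1 had 0.

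Genes of clearance and protein turnover formed the largest functional list after the ribosomal loci, at 6.61% in replicate 1 and 6.997% in replicate 2, with 26 of 33 genes detected. Ubiquitin B (Ubb) had 1.77% and 2.05%. Bnip3l, the receptor that marks mitochondria of reticulocytes for autophagy, had 1.14% and 1.01%. The ubiquitin-conjugating enzyme Ube2l6 had 0.923% and 0.929%, and the autophagosome proteins Gabarapl2 and Map1lc3b had 0.466% and 0.481%, and 0.421% and 0.454%. Outside the list, Mkrn1, a ubiquitin ligase, ranked among the 10 leading genes at 1.77% and 1.83%. By contrast the proteasome list held only 0.152% and 0.166%, and 65.0% of it was the activator Psme3.

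Protection from oxidants rested on a few genes. Gpx1, a glutathione peroxidase, had 2.01% and 2.03%, Prdx2, a peroxiredoxin abundant in red cells, 0.523% and 0.576%, and Blvrb 0.201% and 0.192%. Catalase (Cat) had 0.113% and 0.121%. Gpx1 alone made 64.3% of the antioxidant list, of which 19 of 27 genes were detected.

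Of the glycolysis genes, 1 message stood out. Bpgm, which makes the bisphosphoglycerate that lowers the oxygen affinity of haemoglobin, had 1.88% and 1.98% and made 94.98% of the glycolysis list. Of 23 glycolysis genes matched, 16 had 0 UMIs, among them Pklr, Pgk1, Ldha, Eno1 and Tpi1. Gapdh had 9 and 8 UMIs in 266 cells. Mitochondrially encoded genes held 2.16% and 2.05%, of which mt-Co1 was 0.885% and 0.896%.

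Membrane and skeleton genes held 3.05% and 3.11%, with 29 of 34 detected. The largest part of the list came from a gene that is not reported here. Protein 4.1 (Epb41), which ties the skeleton to the membrane, stood at 0.675% and 0.664%, and Cd24a at 0.323% and 0.316%. The anion exchanger band 3 (Slc4a1) had 0.123% and 0.132%. Rhag, Icam4, Ermap and the glucose carrier Slc2a1 had 0.

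The translation machinery was present as message. Ribosomal protein genes held 4.70% in replicate 1 and 5.36% in replicate 2 (5.03% ± 0.47, SD, n = 2), with 81 of 85 detected, and were led by Rpl41 at 1.02% and 1.04%. Tpt1 had 1.11% and 1.15%, and the poly(A)-binding protein Pabpc1 1.01% and 1.02%. Initiation factors Eif4a1, Eif4a2, Eif4e and Eif4g1 had 0.

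Further groups were small but present. Interferon-stimulated genes held 0.903% and 1.07%, and 3 genes made most of it: Isg20 (0.505% and 0.534%), Rsad2 (0.293% and 0.335%) and Isg15 (0.0746% and 0.154%). Isg20 was found in 93.1% and 95.9% of the cells, against 4.71% and 0% of barcodes with under 10% globin. Of 38 interferon genes matched, 25 had 0 UMIs. Regulators of red cell formation held 0.176% and 0.190%, led by Bcl2l1, a survival factor, with 84 and 82 UMIs (42.3% of the list). Gata1, Klf1, Epor, Kit and Myb had 0.

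**Figure D3:**
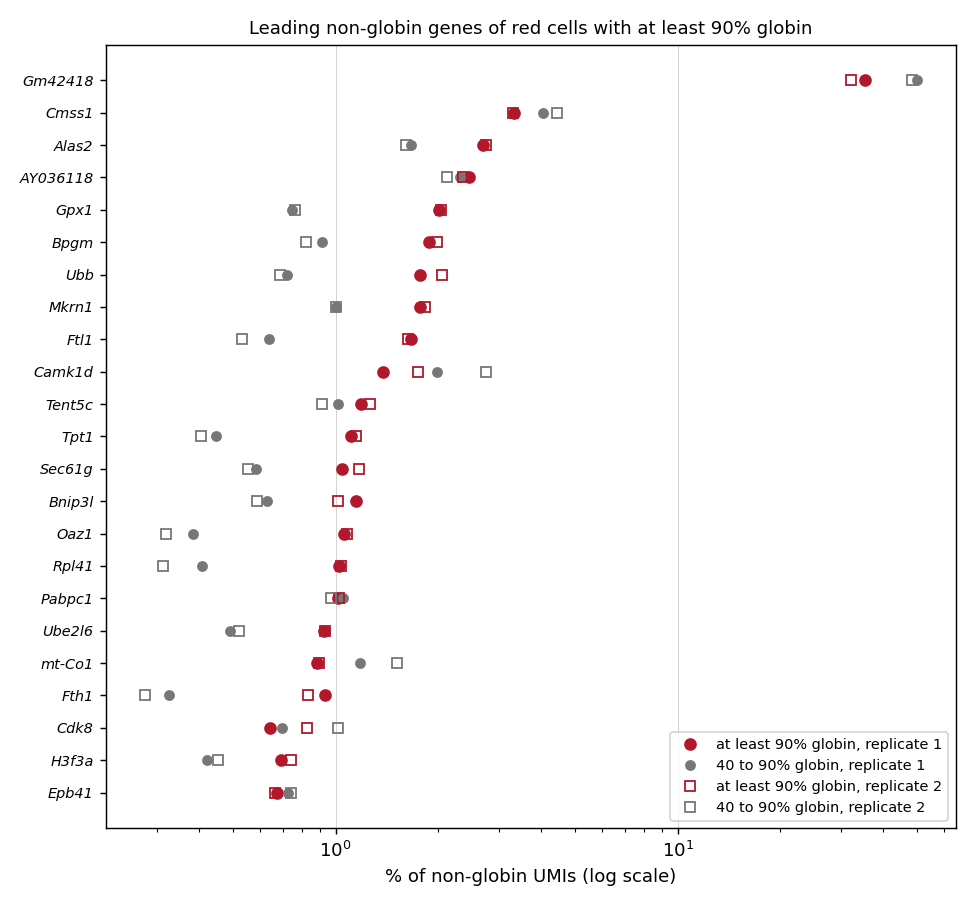
Share of non-globin UMIs (x axis, log scale) of leading non-globin genes in cells with at least 90% globin (red) and barcodes with 40 to 90% globin (grey), replicate 1 as filled circles and replicate 2 as open squares. Red symbols of the libraries lie close together for most genes, such as Gpx1 at 2.01% and 2.03%.

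Markers of other cell types were almost absent. Of 135 marker genes of leukocytes, B, T and NK cells, neutrophils, monocytes, platelets, mesenchymal, mesothelial and endothelial cells, 117 had 0 UMIs. The other 18 gave 17 UMIs in replicate 1 and 11 in replicate 2, in 15 and 11 cells, or 0.0144% and 0.0113%, against 4.03% and 1.82% in barcodes with under 40% globin. The T and NK list and the monocyte list were wholly at 0, as were the collagens Col1a1, Col1a2 and Col3a1. The nuclear RNA Malat1, a sign of a nucleus, had 1 UMI in each library. Of the markers of the label, the globins were fixed by the rule, and Alas2, which the rule did not use, was found in every cell.

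**Figure D4:**
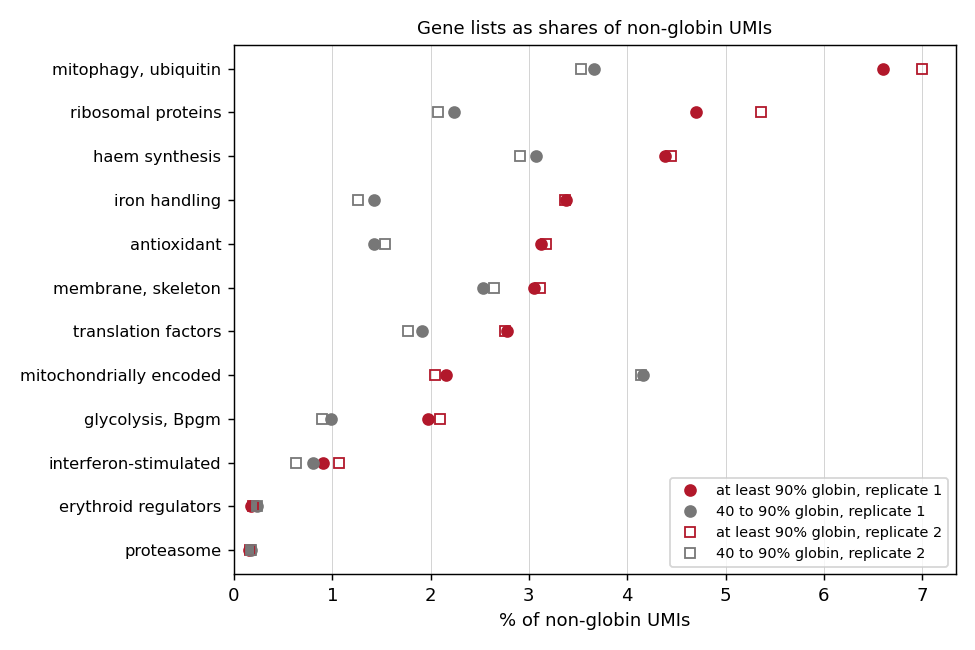
Summed share of non-globin UMIs (x axis, %) of 12 gene lists in cells with at least 90% globin (red) and in barcodes with 40 to 90% globin (grey), by library. The mitophagy and ubiquitin list stands at 6.61 and 6.997% against 3.66 and 3.53%, and the mitochondrially encoded list stands lower, at 2.16 and 2.05% against 4.16 and 4.14%.

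The cells differed from each other more for some genes than for others. For 264 genes with at least 50 UMIs, the variance over cells was set against that of counting alone, given each cell's non-globin UMIs. The median ratio was 1.33, and 46 genes exceeded 2. Gm42418 varied most (23.4 times), from 10.3 to 56.8% of a cell's non-globin UMIs in replicate 1 and from 7.098 to 57.2% in replicate 2.

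Some genes were carried by a minority of cells. Carbonic anhydrase 2 (Car2, ratio 9.44) was found in 114 of 266 cells (42.9%), and the 10 cells with most of it held 42.5% of its UMIs. Isg15 (6.58) was found in 74 cells, and 10 of them held 52.9%. Apol11b (5.65) was found in 41 cells, and 10 held 67.3%. Fth1 (7.87), Gpx1 (7.42), Ubb (6.33) and Tpt1 (5.05) were also uneven, though each was found in over 90% of cells.

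Genes sorted along the Gm42418 share in a like way in both libraries. Spearman's rho was computed over the 145 and the 121 cells, with the ribosomal loci taken out of the denominator of every other gene. It was positive for Camk1d (0.60 and 0.71), Cmss1 (0.57 and 0.66), Alas2 (0.55 and 0.42) and Gphn (0.49 and 0.60). For Gpx1 it was -0.45 and -0.48, for Prdx2 -0.45 and -0.36, and for Car2 -0.42 and -0.44. The haem list gave 0.59 and 0.54 and the antioxidant list -0.56 and -0.51, but Alas2 made 61.8% of the former and Gpx1 64.3% of the latter. Not all lists sorted in this way: the iron list gave 0.15 and -0.07 and the membrane and skeleton list -0.06 and 0.01. Cells of a library share its depth and reaction, and depth moved with both ends: total UMIs gave -0.45 and -0.37 with Alas2 and 0.47 and 0.42 with Car2. These are descriptions without a test, and the part of depth in them was not tested.

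One cell stood apart. The cell with the most detected genes in replicate 1 (458 genes, 20330 UMIs, 91.5% globin) held 25 of the 26 Mki67 UMIs of the 145 cells of its library, 14 of their 169 of Ube2c, 15 of the 17 of Ptma, 13 of the 21 of Tuba1b and all 13 of Sord. Mki67 marks dividing cells and Ptma is high in growing cells. Its Gm42418 share was 10.3% against 35.7% in the other cells, its Fth1 share 7.09% against 0.837%, and its Alas2 share 0.576% against 2.73%. Top2a, which also marks division, had 0 UMIs in it. It is a single barcode, and no cell of replicate 2 had more than 1 Mki67 UMI.

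The libraries agreed closely for most genes. Of 183 genes with at least 100 UMIs, 139 (76.0%) had shares within 1.25-fold of each other. Among the lowest ratios of replicate 1 to replicate 2 were those of Fam220a (0.412, 95% counting interval 0.295 to 0.569), Isg15 (0.483, 0.367 to 0.633) and Gm15564 (0.527, 0.359 to 0.768). The highest were those of mt-Cytb (1.70, 1.18 to 2.50), Elob (1.46, 1.12 to 1.91), Tspo2 (1.46, 0.989 to 2.17), Cmas (1.43, 1.09 to 1.90) and Apol11b (1.43, 1.02 to 2.02). With 1 library a side, these ratios compare the libraries and have no test.

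Non-globin RNA was spread over more genes than in barcodes with 40 to 90% globin, and over fewer than in barcodes with under 40%. At an equal 300 non-globin UMIs, the expected number of non-globin genes per cell had a median of 89.05 and 90.1, against 72.7 and 73.6 in barcodes with 40 to 90% globin and 205.4 and 165.3 in those with under 40%. Without thinning, the medians were 141 and 147, against 134 and 130, and 940 and 489.5. At 300 UMIs, 1 cell of replicate 2 was too shallow and was left out. The higher Gm42418 share of the comparison barcodes moves with this difference, and its part was not tested. Gene number was also selected on, since every set had to hold at least 100 genes. The cells had fewer non-globin UMIs (median 724 and 732) than barcodes with 40 to 90% globin (845.5 and 835.5). The same minimum thus asked for more genes per UMI in the cells, and the part of this was not tested.

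How non-globin RNA was divided among genes was then tested against the barcodes with 40 to 90% globin, on sums per library with the library as a block (edgeR quasi-likelihood test, Benjamini-Hochberg adjusted p under 0.05). Of 518 genes tested, 182 differed (35.1%): 93 were higher in the high-globin cells (18%) and 89 were lower (17.2%). The scale matters for the direction. The trimmed-mean (TMM) scaling used here set the median gene at a log2 fold change of 0.10, while scaling by total non-globin UMIs moved it to 0.55, a shift of 0.45, and called 235 genes (45.4%), 200 higher (38.6%) and 35 lower (6.76%), so that 85.1% of calls were higher, against 51.1%. With 4 sums and 1 residual degree of freedom, the spread is largely one shared across genes. The globin share that chose the cells also counts these UMIs in its denominator.

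Ribosomal protein genes were called in 1 direction only. Of 69 tested, 28 were higher and 0 lower (18% and 17.2% over all genes), with a median log2 fold change of 0.65 against 0.10 for all genes, and 27 were higher with mitochondrial and ribosomal RNA loci left out. DESeq2 called 7 higher and 0 lower. The 28 include Rpl10a (16 and 14 UMIs, against 7 and 5), which passed the filter on low counts only through the high-globin cells. Genes that enter the test in this way favour calls in that direction. Rpl41 rose from 0.406% and 0.312% to 1.02% and 1.04% (log2 fold change 1.07 ± 0.12 SE, edgeR adjusted p = 0.00065). Rplp0 had a log2 fold change of 0.97 ± 0.13 (edgeR adjusted p = 0.0020) and Rps29 of 0.82 ± 0.16 (edgeR adjusted p = 0.0082).

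Both ferritin chains and Gpx1 were higher as well. Of 7 iron genes tested, 5 were higher and 0 lower, against 18% and 17.2% over all genes: Fth1 (log2 fold change 1.10 ± 0.10, edgeR adjusted p = 0.00022), Ftl1 (1.04 ± 0.10), Iscu, Isca1 and Glrx5. Of 12 antioxidant genes tested, 3 were higher (Prdx1, Gpx1 and Prdx2), 1 was lower (Cat) and 8 were not called. This share of calls is near the 35.1% over all genes and is no result for the list. Prdx1 (13 and 12 UMIs, against 6 and 5) passed the filter on low counts only through the high-globin cells. Gpx1 rose from 0.748% and 0.761% to 2.01% and 2.03% (0.97 ± 0.08, edgeR adjusted p = 0.00022). Cat fell by 0.94 on the log2 scale (SE 0.14, edgeR adjusted p = 0.0027) and was also lower when scaled by total UMIs.

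Of 22 genes of the clearance list tested, 7 were higher, 3 lower and 12 not called, against 18% higher and 17.2% lower over all genes. Gabarapl2 (log2 fold change 1.14 ± 0.14, edgeR adjusted p = 0.0015), Ubb (0.98 ± 0.10, edgeR adjusted p = 0.00042), Map1lc3b (0.66 ± 0.11), March2 (0.52 ± 0.11), Ube2l6 (0.42 ± 0.09) and Bnip3l (0.38 ± 0.09) were among those higher. Ranbp10, Wdr26 and Ube2o, which take part in ubiquitin ligation, were lower, but scaled by total UMIs none of the 3 was called.

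Of 7 haem genes, Tspo2 (0.73 ± 0.20) and Alas2 (0.29 ± 0.08, edgeR adjusted p = 0.027) were higher and Slc25a37 was lower by TMM (-0.38 ± 0.10, edgeR adjusted p = 0.020). Over all genes, 18% were higher and 17.2% lower, so these few calls are no result for the list. Scaled by total UMIs, Slc25a37 had a log2 fold change of 0.07 (edgeR adjusted p = 0.55) and 5 of the 7 were higher. None of the 7 was called against barcodes with 80 to 90% globin.

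Bpgm was higher (0.71 ± 0.09, edgeR adjusted p = 0.0018), rising from 0.911% and 0.822% to 1.88% and 1.98%. Among 5 interferon genes tested, Isg20 was higher (0.73 ± 0.11, edgeR adjusted p = 0.0033), while Rsad2 was lower by TMM (-0.43 ± 0.14, edgeR adjusted p = 0.046) and had 0.02 when scaled by total UMIs. Isg15 did not pass (-0.77 ± 0.34, edgeR adjusted p = 0.11). Of 10 translation genes, Eif1 (1.01 ± 0.13) and Tpt1 (0.96 ± 0.10) were higher. Pabpc1 and Eif5 were lower by TMM (-0.44 and -0.38), but had 0.01 and 0.07 when scaled by total UMIs. Over all genes, 18% were higher and 17.2% lower, so the calls among the interferon and translation genes are no result for these lists. The minor globins Hbq1a (1.53 ± 0.37) and Hbq1b (1.00 ± 0.21, edgeR adjusted p = 0.011) were both higher. Hbq1a (39 and 29 UMIs, against 26 and 7) passed the filter on low counts only with the sums of the high-globin cells, which favours a call in that direction. The libraries, each taken alone and without a test, gave log2 ratios of 0.97 and 2.14 for Hbq1a, -0.70 and -0.15 for Rsad2, and 0.97 and 0.93 for Hbq1b.

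Membrane and skeleton genes were lower or not called by TMM: of 17 tested, 0 were higher and 6 lower, with a median of -0.53. Over all genes, 18% were higher and 17.2% lower. The share called in either direction is near the 35.1% over all genes and by itself is no result for the list. The 6 were Stom, Epb42, Slc4a1, Ank1, Tmcc2 and Epb41. Scaled by total UMIs, 2 of the 17 were higher and 1, Slc4a1, was lower. DESeq2 called 2 lower, Slc4a1 and Epb41. Slc4a1 fell from 0.198% and 0.223% to 0.123% and 0.132% (log2 fold change -1.17 ± 0.13, edgeR adjusted p = 0.00063). Bcl2l1 and E2f2, 2 of 4 erythroid regulators tested, were lower (-1.07 ± 0.15 and -1.14 ± 0.26), against 17.2% over all genes. Bcl2l1 was also lower when scaled by total UMIs. Taken alone, the libraries gave log2 ratios of -0.73 and -1.63 for E2f2.

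Mitochondrially encoded genes were lower in 11 of 12 tested (median log2 fold change -1.79), against 17.2% lower over all genes. They ran from mt-Nd4l (0 and 3 UMIs in the cells), mt-Nd2 and mt-Nd3, of complex I, to mt-Nd5, also of complex I, at -0.89. The fold change of mt-Nd2 was -2.86 ± 0.21 (edgeR adjusted p = 0.00015; 22 and 11 UMIs in the cells), that of mt-Nd1 -2.17, that of mt-Cytb, of complex III, -2.05, and that of mt-Nd4 -2.01. mt-Co1, of complex IV, had -1.03 ± 0.11 (edgeR adjusted p = 0.00042). Against barcodes with 80 to 90% globin, 4 of 10 tested were lower, against 35 of 442 over all genes. There mt-Nd2 had -0.85 (edgeR adjusted p = 0.093). Mitochondrial UMIs lower a barcode's globin share by their own count, and the comparison set reached 19.8% and 40.6% mitochondrial UMIs in single barcodes, against 1.67% and 0.427% in the cells.

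Genes at the extremes are given as a description. Of nuclear genes, the highest fold changes included those of the linker histone Hist1h1c (2.56 ± 0.60, edgeR adjusted p = 0.016, 11 and 16 UMIs against 1 and 5), Gm8797, Borcs8, Rpl10a, Atp5mpl, Prdx1, Hbq1a, Rps7 and Hist1h2bc. The lowest outside the mitochondrial genome were those of Trak2, an adaptor for mitochondrial transport (-2.81 ± 0.35, edgeR adjusted p = 0.0014, 8 and 3 UMIs in the cells), the chloride carrier Clcn3, the kinase Wnk1 and the Myc antagonist Mxd1. Hist1h1c, Gm8797, Borcs8, Rpl10a, Prdx1, Trak2, Clcn3, Wnk1 and Mxd1, like mt-Nd4l above, passed the filter on low counts only through the set in which they were high. Atp5mpl, Hbq1a and Hist1h2bc, like mt-Nd3 above, also needed the sums of that set to pass it. Taken alone, the libraries gave log2 ratios of 2.38 and 1.69 for Hist1h1c, 2.11 and 1.18 for Borcs8, and -2.39 and -2.72 for Trak2. Among abundant genes, Oaz1, which limits polyamine synthesis, rose (1.16 ± 0.11, edgeR adjusted p = 0.00028). Camk1d (-1.04 ± 0.08) and Cmss1 (-0.80 ± 0.08) fell, as did Gm42418 (-0.998 ± 0.073), and these 3 also fell when scaled by total UMIs.

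**Figure D5:**
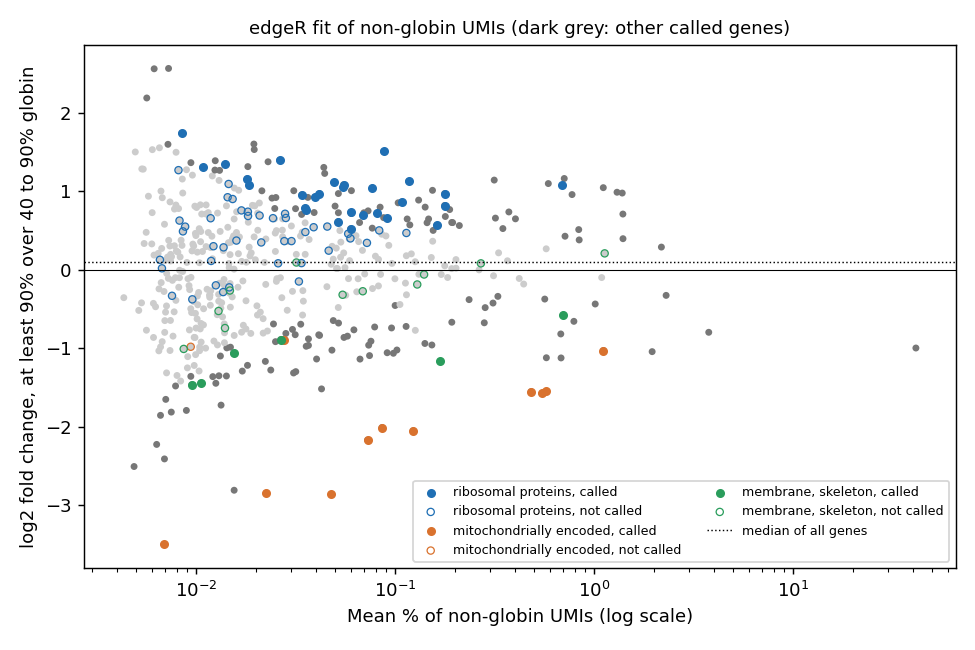
Log2 fold change of cells with at least 90% globin over barcodes with 40 to 90% globin (y axis, edgeR, TMM scaling) against the mean share of non-globin UMIs (x axis, log scale) for 518 genes. Filled coloured symbols passed the test and coloured outlines did not. Other genes are dark grey if they passed and light grey if not. The dotted line is the median of all genes (0.10). Over all genes, 18% were higher and 17.2% lower. Blue ribosomal protein genes that passed all lie above the dotted line (28 of 69), while orange mitochondrially encoded genes (11 of 12) and green membrane genes (6 of 17) that passed lie below. Scaled by total UMIs, Slc4a1 is the 1 membrane gene still lower and 2 are higher, while DESeq2 calls 2 lower.

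The closest neighbours narrowed the difference. Against only the barcodes with 80 to under 90% globin (127 and 80 barcodes, a limit chosen after seeing the data), 71 of 442 genes passed, 36 higher and 35 lower, and 70 of them had passed in the same direction against the wider set. Gpx1 (log2 fold change 0.59), Ubb (0.59), Ftl1 (0.73), Bpgm (0.49) and Slc4a1 (-0.67) passed in both comparisons. Of 64 ribosomal protein genes tested, 10 were higher.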

How the data were processed

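Single-cell RNA of 2 libraries was analysed from the deposited matrices. The deposited values are whole-number UMI counts, not normalized, and per the file headers were made with Cell Ranger 7.1.0; the submitters' processing notes also name Seurat 5 and mm10, with no role given. The calling of barcodes and any removal of doublets are not stated there. Of 32285 gene IDs, 32158 (99.6%) matched the name table. Sequences are from RefSeq (GRCm38.p6) and GENCODE M21.

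Depth was 3967318 UMIs in replicate 1 and 3329292 in replicate 2. Intervals are exact (Clopper-Pearson, 95%) and cover counting error only, as does the limit of 3 UMIs for a count of 0. UMIs were summed per library for the cells and for barcodes with 40 to under 90% globin, and non-globin genes were tested with edgeR 4.0.16 in R 4.3.3 (filterByExpr, TMM, quasi-likelihood test, library block since both sums come from the same library, Benjamini-Hochberg over all genes tested, 0.05). DESeq2 1.42.0, other scalings, filters and barcode limits were alternatives. The fit was also run on simulated sums with known changes, drawn from a shared profile with no library effect. That run does not bear on how the calls here depend on the scaling or on the library block. With the library as a block, p-values rest on how far the difference between the sets varies between these libraries. This spread is largely shared across genes and may be technical.

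The cells, gene lists and comparisons were chosen with earlier results of these data known. Named genes are the 25 leading non-globin genes, up to 6 leading genes per list and defining genes at 0, the 10 highest and 10 lowest called fold changes, the 5 highest and 5 lowest library ratios, and the 10 most uneven genes. Urod, Cpox, Gapdh, Oaz1, the genes of the richest cell and those of the correlations were named after their values were seen. A few genes that fall under these rules are not reported here.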

Additional observations from a re-analysis of the deposited data

How the results depend on the processing

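With at least 200 genes the rule gave 59 cells, with at least 80% globin 473 and with at least 95% globin 34. The ribosomal RNA loci held 36.7% (35.2 to 38.3 leaving out each library in turn) and 27.7% in cells with at least 200 genes. The haem list held 4.41% (4.39 to 4.44), but 6.98% without the ribosomal RNA loci, 4.51% without mitochondrial genes, 4.63% as the mean of the cells' own shares and 3.71% with at least 200 genes. Its main value has an SD of only 0.04 over the libraries. The ribosomal protein list held 5.03% (4.70 to 5.36), 7.94% without the ribosomal RNA loci and 5.80% with at least 200 genes. Alpha globin was 48.3% (47.5 to 49.2) and 46.8% with at least 200 genes. Of the 182 genes called, 93 higher and 89 lower, total UMI scaling called 200 higher and 35 lower, no filter on low counts 61 higher and 107 lower (36.3% higher, against 51.1%), a minimum of 200 genes 59 (19 higher, 40 lower), the set with 80 to 90% globin 71 (36 higher, 35 lower) and DESeq2 69 of 247 with an adjusted p (28 higher, 41 lower). Limiting the comparison set to at most 20% mitochondrial UMIs left 238 barcodes in replicate 1 and took replicate 2 from 186 to 185. It called 216 of 517 genes (104 higher, 112 lower), of which 179 were shared. In no setting did a shared call change direction. Of the 20 genes named for the largest fold changes, 13 could be tested against the set with 80 to 90% globin and 10 of these were no longer called. Without the replicate block, 176 genes were called (90 higher, 86 lower), of which 173 were shared; the pairing comes from the libraries themselves. Leaving out a library leaves no residual degree of freedom, so counts of calls have no such value. Shares under about 0.003% rest on 3 UMIs or fewer, and the cause of these changes was not tested where fewer cells or genes do not account for them.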

Other observations

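The barcodes with at least 90% globin but fewer than 100 genes (28 and 41) differed in their non-globin RNA. Haem genes held 5.75% and 5.82% there, against 4.39% and 4.44% in the cells described, and antioxidant genes 0.492% and 0.887%, against 3.12% and 3.17%. Ribosomal RNA loci held 53.4% and 46.6%. A minimum number of genes selects on the same RNA, so these values are descriptions.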
